A study of Mus musculus with 20 samples.

Results

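Interferon-stimulated genes are the genes that cells switch on when interferons, the signalling proteins of antiviral defence, bind their receptors. The 33 genes described here were chosen by name, and a probe set of the array stood for a gene when the platform annotation gave it that symbol. All 33 genes were measured, each by 1 probe set, so the rule of taking the probe set with the highest mean was never needed. They are 33 of 19505 named genes and of 22206 probe sets on the array.

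The values came from the epididymal fat pads of 20 male C57BL/6 mice, 1 array per mouse. The 10 cre mice had the genotype TNF-αFlox/FLox, LyzMcre+/-, and the 10 wt mice, their littermates, had TNF-αFlox/FLox, LyzMcre-/-. Both groups thus carried the floxed Tnf alleles, and both were fed in the same way: chow until 10 weeks of age, then 18 weeks of a purified diet with 40% of its calories from fat, with tissue taken at 28 weeks. The lysozyme promoter of LyzM-Cre is active in macrophages and in other myeloid cells such as neutrophils, so Tnf, the gene of the cytokine TNF-α, was left intact by design in fat cells, lymphocytes and vessels. How completely macrophages had lost Tnf was not measured. The arrays were labelled as 2 batches, each with 5 cre and 5 wt mice, and no animals on a lean diet were analysed here.

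Type I interferons bind a receptor made of Ifnar1 and Ifnar2, and the kinases attached to it phosphorylate transcription factors, Stat2 among them. Stat2 acts with Irf9 in a complex that enters the nucleus and binds a short DNA element in front of interferon-stimulated genes. The products of these genes sense viral RNA and DNA, stop translation, cleave RNA or block the entry and release of viruses. Irf7, itself induced by interferon, drives the production of more interferon. Macrophages, fat cells and endothelial cells of adipose tissue can all make this response, and a low level of it is present without infection.

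Signals were log2 values, on which a difference of 1 is a 2-fold difference, and differences are cre minus wt from limma with genotype and batch as terms. Array medians lay between 6.49 and 6.58, correlations between arrays between 0.934 and 0.989, and 0 pairs of arrays held the same values. Tnf, which checks the labels, had log2 signals from 3.91 to 5.34 with a median of 4.58 in cre mice, against 5.78 to 7.80 with a median of 6.48 in wt mice. The groups did not overlap, and Tnf differed by -1.99 (SE 0.24, limma adjusted p = 0.000822). Fat pads also differed in RNA of other tissues. Mean signals of a macrophage gene list ranged from 9.95 to 12.3 in cre mice and from 11.1 to 13.0 in wt mice, and 17 of its 19 genes were lower in cre mice. A liver gene list, all 13 genes of which were higher in cre mice, ranged from 7.13 to 12.5 in cre mice and from 6.07 to 14.5 in wt mice. In 5 mice (cre replicates 2, 3 and 9, wt replicates 4 and 6) the mean of a list of another tissue exceeded that of the next mouse of the genotype by over 1 log2 unit. All 13 genes of an adipocyte list were higher in cre mice, with list means from 15.4 to 16.4 in cre mice and from 13.7 to 16.2 in wt mice. Of other lists, the mesothelial list was lower in cre mice in 10 of 10 genes (median -0.45), the T and NK cell list in 12 of 14 (median -0.27) and the seminal vesicle list in 8 of 8 (median -1.03). Of all probe sets 49.3% were lower. Median list means, cre then wt, were 11.86 and 11.72 (macrophage), 15.93 and 15.95 (adipocyte) and 5.74 and 5.75 (T and NK cell). They were 5.11 and 5.04 (seminal vesicle, with wt replicate 6 at 16.9), 7.22 and 7.41 (mesothelial) and 10.2 and 8.01 (liver). At an unadjusted limma p under 0.05 were 3 macrophage, 1 mesothelial and 1 liver gene. In the adipocyte, T and NK cell and seminal vesicle lists 0 genes reached that p. The part of the mesothelial list in the results was not tested. The others entered as covariates or through the mice left out. In whole fat, fewer cells of a type and less RNA per cell cannot be told apart.

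The DNA element that the interferon-activated complex binds has a core of GAAA, any 2 bases and GAAA, which can lie on either strand, where it reads TTTC, any 2 bases and TTTC. It was looked for in the 250 bases before and 50 bases after each gene's start in RefSeq promoters (GRCm38.p6). Of the 33 genes 24 had a promoter entry, and 13 of these held the core (54.2%), against 3.99% of all 27025 genes with an entry. The longer form that goes on with CT was in 8 of 24 (33.3%), against 0.303% of all genes. The element of the interferon-γ response, TTC, any 3 bases and GAA, was in 5 of 24 (20.8%), against 9.55% of all genes. The stretches below are shown because they hold the core in the genes with the lowest p among those with a match (Bst2, Oas1a and Trim30a) and in some of those with several matches (Isg15, Ifit1 and Gbp3). They are written 5′ to 3′ along the gene, and capitals mark the matched letters, with overlapping matches joined.
Bst2, chr8:71537562-71537627, minus strand: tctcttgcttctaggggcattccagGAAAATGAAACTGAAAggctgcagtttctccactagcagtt
Oas1a, chr5:120907505-120907570, minus strand: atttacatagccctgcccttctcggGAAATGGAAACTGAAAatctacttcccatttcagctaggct
Trim30a, chr7:104465195-104465254, minus strand: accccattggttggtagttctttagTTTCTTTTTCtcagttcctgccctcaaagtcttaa
Isg15, chr4:156200850-156200921, minus strand: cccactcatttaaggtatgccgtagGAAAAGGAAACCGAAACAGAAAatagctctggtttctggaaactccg
Ifit1, chr19:34640760-34640838, plus strand: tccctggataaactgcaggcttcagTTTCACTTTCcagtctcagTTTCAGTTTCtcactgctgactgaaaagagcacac
Gbp3, chr3:142559974-142560039, plus strand: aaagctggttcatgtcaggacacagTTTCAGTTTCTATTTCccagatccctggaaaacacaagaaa
In Isg15 the core occurred 3 times, starting 78, 72 and 66 bases before the start site. In Bst2 it began 130 and 124 bases before the start, and in Oas1a 20 and 14 bases before it. The pair of matches in Ifit1, 104 and 85 bases before the start, did not overlap. The other start listed for Trim30a held 1 match as well. Single matches lay in Ddx58, Ifih1, Stat2, Rsad2, Eif2ak2 and Gbp2, and Ifit3 held 2. Trim25, Irf7, Irf9, Herc6, Ifit2, Oasl1, Oasl2, Cmpk2, Dtx3l, Xaf1 and Ifi35 had an entry without these letters in the window. Dhx58, Zbp1, Usp18, Oas2, Mx1, Parp9, Parp14, Rtp4 and Ifi27 had no entry.

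**Figure D1:**
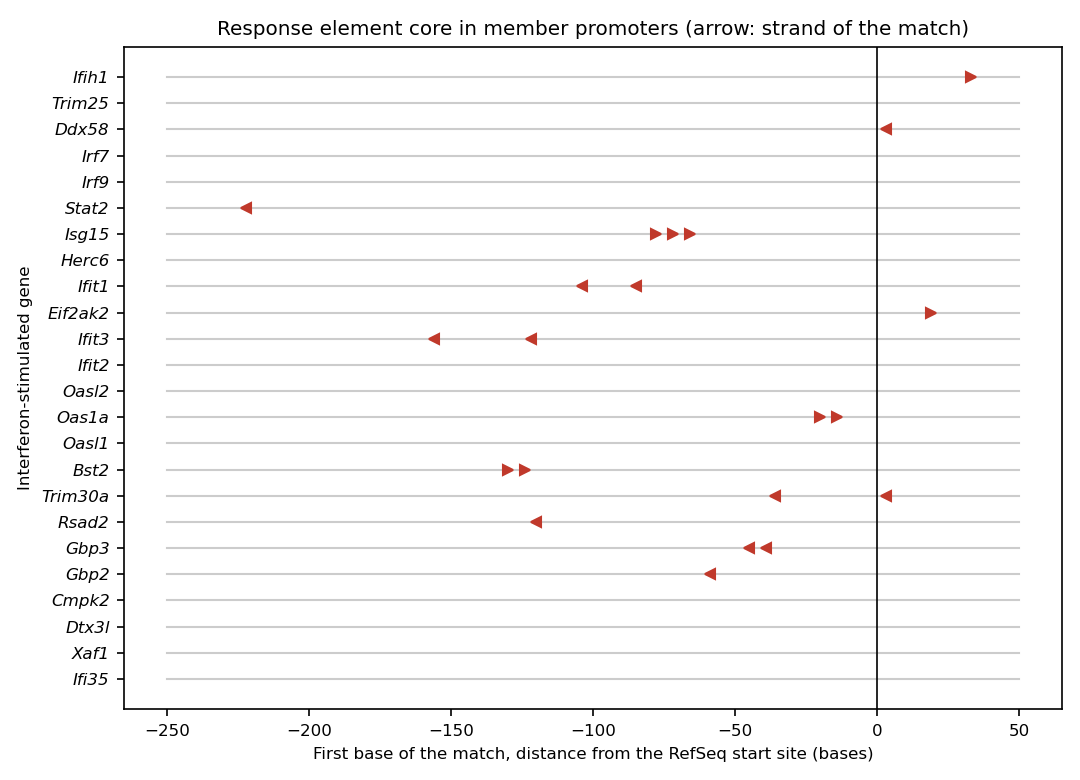
Positions of the response element core in the promoters of the 24 interferon-stimulated genes with a RefSeq entry, as the distance in bases of the first base of each match from the start site (horizontal axis, 0 marks the start). Arrows point along the strand of the match, grey lines span the window searched, and 13 genes hold at least 1 match.

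Nearly all of the genes stood lower in the fat of cre mice than in that of wt mice, by small amounts, and none passed adjustment over all probe sets. Lower means were found in 29 of 33 genes (87.9%), against 49.3% of all probe sets. The median difference of the 33 genes was -0.25, with a range from -0.74 to 0.30, beside a median of 0.003 over all probe sets. The 4 genes with a higher mean in cre mice were Ifi35 (0.30), Ifi27 (0.22), Ifit2 (0.03) and Ifit3 (0.01). The genes also varied together from mouse to mouse, so the 33 genes are not 33 independent observations.

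An unadjusted limma p under 0.05 with a lower mean in cre was reached by 7 genes (21.2%), against 3.05% of all probe sets. They were Bst2, Irf7, Oasl2, Oas1a, Mx1, Rtp4 and Trim30a. With all mice 0 of 33 genes were higher in cre at that p, where 3.24% of all probe sets were, but Ifi35 was on leaving out any of 5 mice (cre replicates 8 and 10, wt replicates 2, 3 and 10) and with the liver list as a covariate. After Benjamini-Hochberg adjustment in limma 0 of 33 genes passed, where 0.0045% of probe sets, Tnf alone, did, and the smallest adjusted p among the 33 genes was 0.306, for Bst2. The selection stated for the study, at least 1.5-fold with an unadjusted p under 0.05, took in Irf7, Oasl2 and Bst2 as lower in cre (3 of 33, 9.09%), against 0.662% of all probe sets. The count of 7 became 4 without wt replicate 3 or without wt replicate 10, and 11 without the 5 mice that stood apart in lists of other tissues, with a median difference of -0.39. In these fits 3.22%, 2.99% and 3% of all probe sets were lower at that p. Leaving out each of the 20 mice in turn, Bst2, Irf7 and Oasl2 kept an unadjusted p under 0.05, while Rtp4 lost it in 10 cases, Trim30a in 8, Mx1 in 3 and Oas1a in 1. The count of 3 became 1 without cre replicate 3 or wt replicate 3, 5 without cre replicate 9 and 6 without wt replicate 4. For that selection the share of all probe sets is given for the main fit only. A change over the whole array thus cannot be told apart from a change of the 33 genes.

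**Figure D2:**
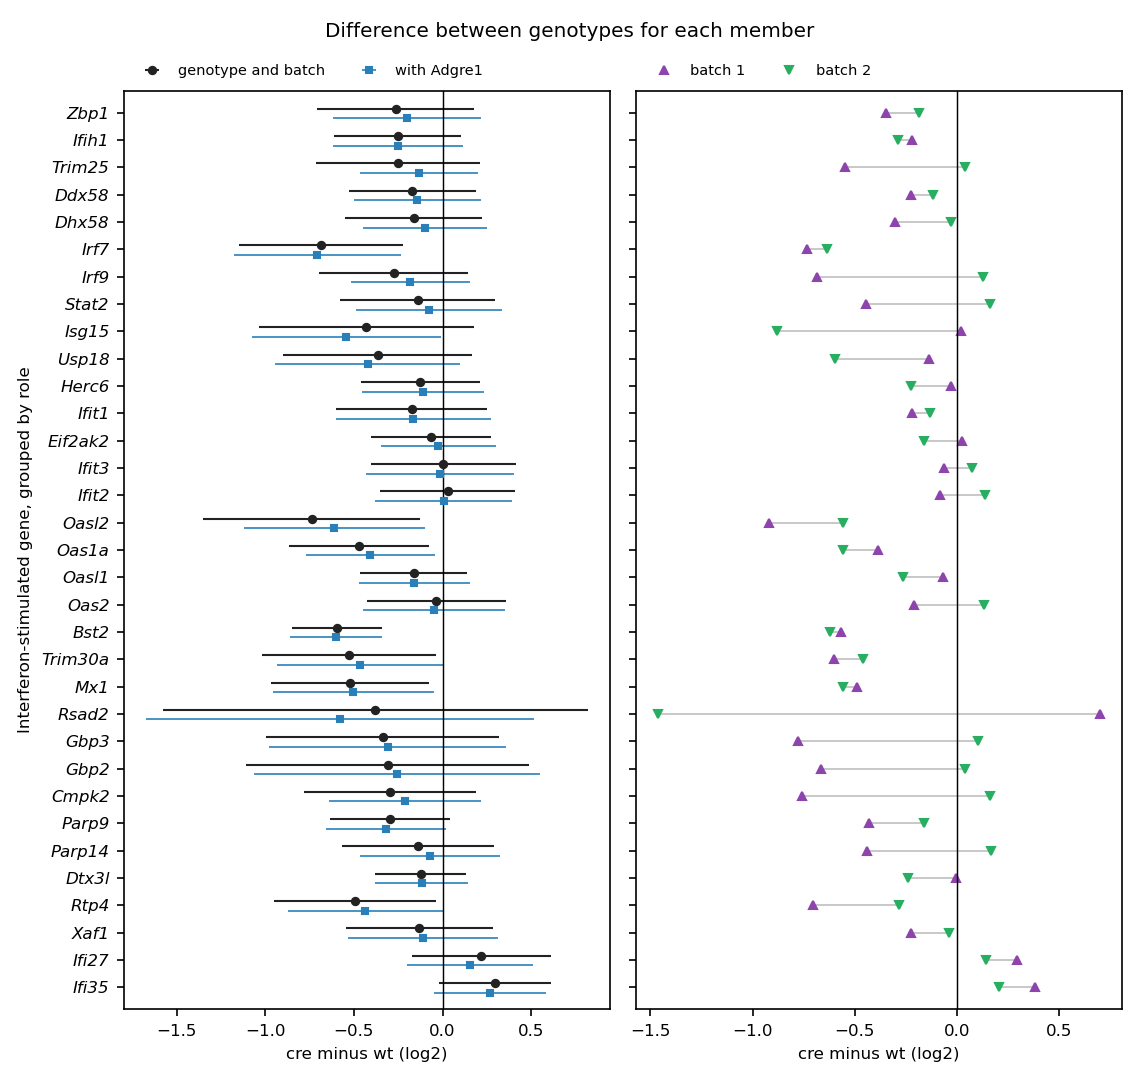
Difference between cre and wt mice in log2 signal (horizontal axes) for the 33 interferon-stimulated genes, grouped by role. On the left, circles are estimates from genotype and batch and squares those with Adgre1 added, with 95% intervals; on the right, triangles are the differences within batch 1 and batch 2. Most points lie left of 0, from -0.74 for Oasl2 to 0.30 for Ifi35.

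The comparison was repeated within each batch. In batch 1 the median difference of the 33 genes was -0.30, 28 genes were lower in cre, and 7 genes reached an unadjusted p under 0.05 (21.2%, against 3.48% of probe sets). These were Bst2, Irf7, Oasl2 and Rtp4 of the 7 above, with Irf9, Cmpk2 and Gbp3 in place of the others. In batch 2 the median was -0.16, 21 genes were lower, and 3 genes, Bst2, Isg15 and Rsad2, reached that p (9.09%, against 2.38% of probe sets). The median difference over all probe sets was -0.002 in batch 1 and 0.019 in batch 2. The share of all probe sets that were lower in a single batch is not given. Lower in both batches were 18 of 33 genes (54.5%), against 23.4% of probe sets. The difference between the batches was itself tested in limma as an interaction: Irf9 (p = 0.0408) and Cmpk2 (p = 0.0460) were under 0.05 unadjusted, as were 7.41% of all probe sets, and the smallest adjusted p was 0.663.

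Adgre1, the gene of a surface protein of mouse macrophages, had log2 signals of 12.5 ± 1.02 in cre mice and 12.8 ± 0.86 in wt mice (SD, n = 10 each), a difference of -0.28 (SE 0.38). With Adgre1 in the fit, 30 of 33 genes were lower in cre and their median difference was -0.18. Over all probe sets the median difference in that fit was 0.002. An unadjusted p under 0.05 was then reached by 6 genes, all lower in cre (18.2%, against 3.38% of all probe sets): Bst2, Irf7, Oasl2, Oas1a and Mx1 were kept, Trim30a and Rtp4 were lost, and Isg15 was added. Across mice of the same genotype and batch, Trim25, Irf9 and Oasl2 followed Adgre1 past an adjusted p of 0.05 in limma (3 of 33, 9.09%, against 8.82% of all probe sets), a share close to that of the array as a whole. Their slopes were 0.43, 0.34 and 0.46 log2 units per log2 unit of Adgre1. With the mean of the whole macrophage list in place of Adgre1, 4 genes were lower at that p, against 3.22% of all probe sets. These were Bst2, Irf7 and Mx1 of the original 7, and Isg15. Oasl2 (p = 0.0567), Oas1a (p = 0.0609), Trim30a and Rtp4 no longer reached that p. With the T and NK cell list as a covariate 5 genes remained (Trim30a and Rtp4 were lost), against 2.9% of all probe sets, and the median difference was -0.17. With the adipocyte list the count was again 7, against 3.13% of all probe sets, with Parp9 (p = 0.00684) in place of Trim30a. Without wt replicates 5 and 6, whose adipocyte genes were low, it was 8, against 2.79% of all probe sets, with Parp9 and Cmpk2 added and Trim30a lost.

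The genes of transcription factors came first in the pathway. Irf7, the factor that amplifies interferon production, had log2 signals from 6.11 to 7.55 with a median of 7.11 in cre mice, against 6.94 to 8.67 with a median of 7.72 in wt mice. Every cre mouse was under the wt mean of 7.68, although the groups overlapped, since wt replicates 4, 6, 7 and 8 were among the cre values. The difference was -0.69 (SE 0.22, 1.61-fold lower, unadjusted p = 0.00544, limma adjusted p = 0.770), with -0.74 in batch 1, -0.64 in batch 2 and -0.71 with Adgre1. A two-sided permutation of genotype within batches, run for Irf7, Bst2 and Isg15 with 100000 resamples, gave p = 0.00826 for Irf7 (0.0124 adjusted over the 3 genes). The permutation used the same values as limma, and the 3 genes were chosen with earlier results of these data known. It was not adjusted over all probe sets, so it is no separate support.

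Irf9, the DNA-binding subunit of the complex, had signals from 6.91 to 8.10 with a median of 7.70 in cre mice, against 7.08 to 8.63 with a median of 7.87 in wt mice. The ranges overlapped over most of their length. Its difference was -0.28 (SE 0.20, unadjusted limma p = 0.186), and it was -0.68 in batch 1 but 0.13 in batch 2. At equal Adgre1 it was -0.18, and without wt replicate 5 also -0.18. Stat2, the partner of Irf9 in that complex, averaged 9.06 ± 0.35 in cre mice and 9.20 ± 0.59 in wt mice (SD, n = 10 each), a difference of -0.14 (SE 0.21, unadjusted limma p = 0.513). Its sign too differed between batches, with -0.44 in batch 1 and 0.16 in batch 2, and it was -0.08 with Adgre1. Leaving out single mice gave -0.25 (without wt replicate 4) to -0.06 (without wt replicate 3).

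Of the sensors of viral nucleic acid, grouped here with the ubiquitin ligase Trim25, all 5 genes averaged lower in cre mice, 0 of them at an unadjusted p under 0.05. Over all probe sets 49.3% averaged lower, and 3.05% were lower at that p. The roles are small groups of genes that varied together, and they were not tested as groups. Ddx58, which encodes the RNA sensor RIG-I, had signals from 8.96 to 9.97 with a median of 9.50 in cre mice, against 8.99 to 10.34 with a median of 9.66 in wt mice. The groups overlapped almost completely. The difference was -0.17 (SE 0.17, unadjusted limma p = 0.335), with -0.22 in batch 1, -0.12 in batch 2 and -0.14 with Adgre1, and it was -0.09 without wt replicate 3. The differences of the others were -0.25 for Ifih1, the sensor MDA5, -0.16 for Dhx58, the sensor LGP2, -0.27 for Zbp1, a sensor of Z-form nucleic acid, and -0.25 for Trim25, the ubiquitin ligase that acts with RIG-I. Zbp1 was also the gene that followed a list of T and NK cell genes from mouse to mouse, with a slope of 0.72 (limma adjusted p = 0.00761), as 1 of 33 genes (3.03%), against 0.951% of probe sets.

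Isg15, a ubiquitin-like protein that is attached to other proteins, had signals from 4.70 to 7.86 with a median of 5.43 in cre mice, against 5.52 to 6.71 with a median of 6.03 in wt mice. A single mouse, cre replicate 9, was the highest of all 20, while the lowest value of a wt mouse lay above the median of the cre mice. The difference was -0.43 (SE 0.29, unadjusted limma p = 0.155, permutation p = 0.199). Within batches it was 0.02 in batch 1, which holds cre replicate 9, and -0.88 in batch 2. Without cre replicate 9 it was -0.69 (unadjusted limma p = 0.00199, adjusted p = 0.883), and with Adgre1 in the fit of all mice it was -0.54 (unadjusted p = 0.0468). Usp18, which removes Isg15 from proteins and dampens receptor signalling, differed by -0.37, and Herc6, the mouse ligase that attaches Isg15, by -0.13.

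The 4 genes that block translation had the median closest to 0 of any role, at -0.03, with 2 lower and 2 higher in cre mice. Ifit1, which binds viral RNA caps, had signals from 5.24 to 6.64 with a median of 5.54 in cre mice, against 4.78 to 6.78 with a median of 5.81 in wt mice. All cre values lay within the wt range. It differed by -0.17 (SE 0.21, unadjusted limma p = 0.405), with -0.22 in batch 1, -0.13 in batch 2 and -0.17 with Adgre1. It was -0.29 without wt replicate 4, -0.06 without wt replicate 10, and -0.48 (unadjusted p = 0.0170, adjusted p = 0.794) without the 5 mice that stood apart. Ifit2 and Ifit3, its relatives on the same chromosome, differed by 0.03 (95% interval -0.35 to 0.41) and 0.01 (95% interval -0.40 to 0.41). Eif2ak2, the kinase PKR that halts translation on double-stranded RNA, averaged 9.13 ± 0.37 in cre mice and 9.20 ± 0.34 in wt mice (SD, n = 10 each). It differed by -0.07 (SE 0.16, unadjusted limma p = 0.692), with 0.03 in batch 1, -0.16 in batch 2 and -0.02 with Adgre1.

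In the family of oligoadenylate synthetases, of which the active enzymes make the messenger that switches on RNase L, all 4 genes averaged lower in cre mice, and Oasl2 and Oas1a reached an unadjusted p under 0.05. Over all probe sets 49.3% averaged lower, and 3.05% were lower at that p. Oasl2, a member with ubiquitin-like domains, had signals from 8.31 to 10.40 with a median of 9.95 in cre mice, against 9.57 to 11.81 with a median of 10.46 in wt mice. Every cre mouse was under the wt mean of 10.52, and the 4 highest mice were wt replicates 10, 5, 2 and 9. Its difference, -0.74 (SE 0.30, 1.67-fold lower, unadjusted limma p = 0.0202, adjusted p = 0.770), was the largest of the 33 genes. It was -0.92 in batch 1, -0.56 in batch 2 and -0.61 with Adgre1.

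Oas1a, an enzyme of the family, had signals from 5.58 to 6.94 with a median of 6.31 in cre mice, against 6.02 to 7.65 with a median of 6.68 in wt mice. Of the cre mice 9 lay below the wt mean of 6.72, and wt replicate 10 stood highest. It differed by -0.47 (SE 0.19, unadjusted limma p = 0.0221, adjusted p = 0.770), with -0.39 in batch 1, -0.56 in batch 2 and -0.41 with Adgre1. Oas2, another enzyme, averaged 5.04 ± 0.25 in cre mice and 5.08 ± 0.55 in wt mice (SD, n = 10 each). Its difference of -0.04 (SE 0.19, unadjusted limma p = 0.85) was -0.21 in batch 1, 0.14 in batch 2 and -0.05 with Adgre1. Oasl1, which in mice represses translation of Irf7 mRNA, was near the low end of the array: its signals ran from 3.02 to 3.40 in cre mice and from 2.91 to 4.03 in wt mice, while the lower quartiles of the arrays lay between 4.59 and 4.92. Background thus makes up an unknown share of its signal and of its difference of -0.16. The same limit holds in part for Oas2, whose signals went down to 4.43 in cre mice and 4.29 in wt mice. The lowest Isg15 signals in cre mice, 4.70 and 4.73, also fell within the range of the lower quartiles.

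The 7 genes of other antiviral effectors were all lower in cre mice, with a median of -0.38, and Bst2, Mx1 and Trim30a reached an unadjusted p under 0.05. Over all probe sets 49.3% averaged lower, and 3.05% were lower at that p. Bst2, or tetherin, which holds budding virus particles to the cell surface, had signals from 9.56 to 10.98 with a median of 10.33 in cre mice, against 10.05 to 11.56 with a median of 11.01 in wt mice. The batches differed in the level of Bst2. In batch 1 the values were 10.43 to 10.98 in cre mice, all below the 11.12 to 11.56 of wt mice, and in batch 2 they were 9.56 to 10.23 in cre mice, against 10.05 to 10.89 in wt mice. In batch 1 Bst2 was the 1 of 33 genes with every cre mouse below every wt mouse (3.03%, against 0.581% of probe sets). In batch 2 this held for 0 of 33 genes (0.387% of probe sets) and over all 20 mice for 0 of 33 (0.00901% of probe sets).

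Bst2 differed by -0.59 (SE 0.12, 95% interval -0.85 to -0.34, 1.51-fold lower), the smallest p of the 33 genes (unadjusted limma p = 7.84e-05, adjusted p = 0.306). The permutation within batches gave p = 0.00023 (0.00069 adjusted over the 3 genes permuted). It used the same values and was not adjusted over the 33 genes or all probe sets, so it is no separate support. The difference was -0.57 in batch 1, -0.62 in batch 2 and -0.60 with Adgre1, and the slope of Bst2 on Adgre1 was -0.03. On leaving out single mice the limma adjusted p of Bst2 ranged from 0.0926 (without wt replicate 4) to 0.658 (without wt replicate 3).

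**Figure D3:**
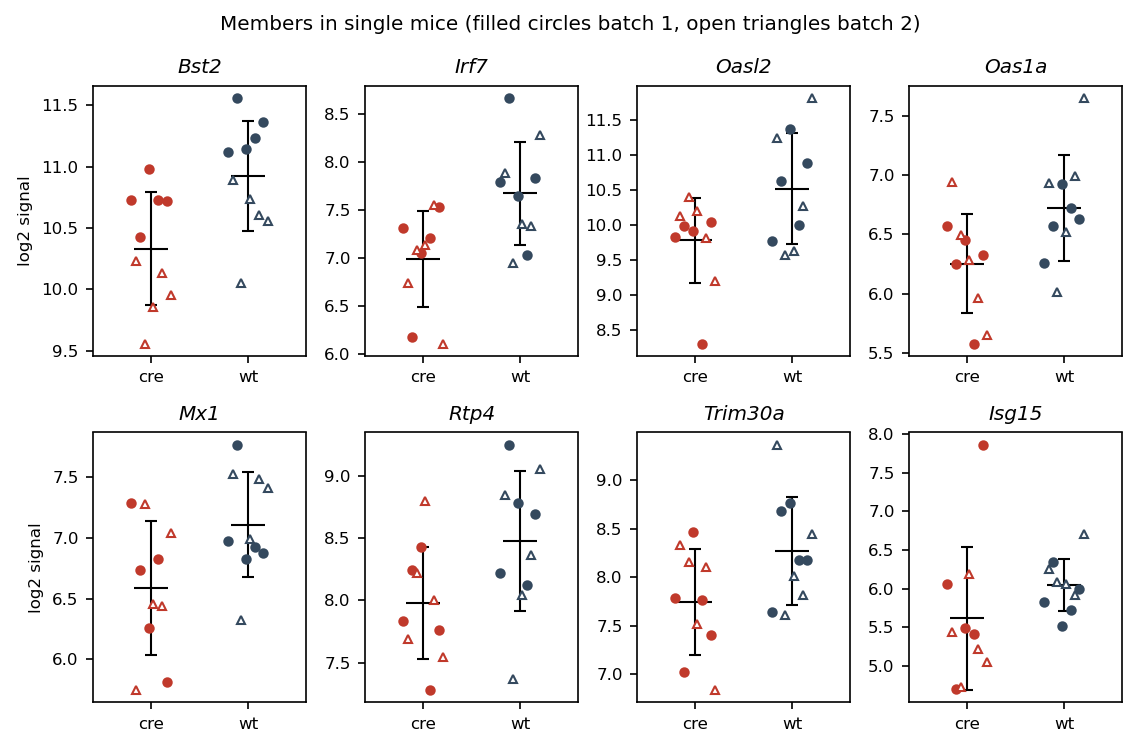
Log2 signal (vertical axes) of 8 interferon-stimulated genes in each cre and wt mouse, with filled circles for batch 1 and open triangles for batch 2; bars show the mean and SD of 10 mice. Bst2 shows a lower cre than wt level in each batch, and cre replicate 9 stands alone at 7.86 for Isg15.

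Mx1, a dynamin-like GTPase that blocks influenza viruses and that most inbred laboratory strains carry as a defective allele, had signals from 5.74 to 7.29 with a median of 6.60 in cre mice, against 6.32 to 7.77 with a median of 6.98 in wt mice. The groups overlapped, although 8 of the cre mice were under the wt mean. It differed by -0.52 (SE 0.21, unadjusted limma p = 0.0235, adjusted p = 0.770), with -0.49 in batch 1, -0.56 in batch 2 and -0.50 with Adgre1. Trim30a, a TRIM protein that dampens Toll-like receptor signalling in mice, had signals from 6.84 to 8.47 with a median of 7.78 in cre mice, against 7.62 to 9.37 with a median of 8.18 in wt mice. Of the cre mice 8 lay below the wt mean. It differed by -0.53 (SE 0.24, unadjusted limma p = 0.0356, adjusted p = 0.781), with -0.60 in batch 1, -0.46 in batch 2 and -0.46 with Adgre1.

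Rsad2, or viperin, which makes a chain-terminating nucleotide, had signals from 6.69 to 13.18 with a median of 8.36 in cre mice, against 7.81 to 10.06 with a median of 8.88 in wt mice. The value of 13.18 was again cre replicate 9, and the next highest cre mouse stood at 8.67. The difference of -0.38 (SE 0.58, unadjusted limma p = 0.518) was 0.70 in batch 1 and -1.46 in batch 2, -0.58 with Adgre1, -0.94 without cre replicate 9 (unadjusted p = 0.00831, adjusted p = 0.883) and -0.16 without cre replicate 10 (unadjusted p = 0.779). This gene is described for that single mouse and was chosen after its values were seen. Cmpk2, the mitochondrial nucleotide kinase whose gene neighbours Rsad2, did not share the high value: it was 6.37 in cre replicate 9, the lowest of the cre mice, and its difference over all mice was -0.30.

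The guanylate-binding proteins, GTPases that attack vacuoles of microbes and that interferon-γ strongly induces, varied widely between mice. Gbp2 had signals from 9.76 to 12.19 with a median of 10.80 in cre mice, against 9.05 to 12.97 with a median of 10.94 in wt mice. Both extremes were wt mice, with wt replicates 2 and 9 highest and wt replicate 6 lowest. The difference was -0.31 (SE 0.39, unadjusted limma p = 0.430), with -0.66 in batch 1, 0.04 in batch 2 and -0.26 with Adgre1. It was -0.56 without wt replicate 6, -0.10 without wt replicate 2, -0.63 without wt replicates 5 and 6, and -0.04 with the T and NK cell list as a covariate. Gbp3 differed by -0.34 over all mice.

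Parp9, Dtx3l and Parp14, an ADP-ribosyltransferase and ubiquitin ligase pair and a related enzyme, were all lower in cre mice by -0.30, -0.12 and -0.14. Over all probe sets 49.3% averaged lower. Parp9 had signals from 8.57 to 9.45 with a median of 9.28 in cre mice, against 8.89 to 10.23 with a median of 9.57 in wt mice, with every cre mouse under the wt mean of 9.50. Its difference had an SE of 0.16 and an unadjusted limma p of 0.0821, and was -0.43 in batch 1, -0.16 in batch 2 and -0.32 with Adgre1.

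The remaining genes differed in sign. Rtp4, a chaperone of membrane receptors, had signals from 7.28 to 8.80 with a median of 7.92 in cre mice, against 7.37 to 9.25 with a median of 8.53 in wt mice. Of the cre mice 9 lay below the wt mean, and the groups overlapped over most of their range. It differed by -0.49 (SE 0.22, unadjusted limma p = 0.0351, adjusted p = 0.781), with -0.71 in batch 1, -0.28 in batch 2 and -0.44 with Adgre1. Xaf1, which promotes cell death, differed by -0.13. Ifi35, an adaptor of innate signalling, was higher in cre by 0.30 (95% interval -0.02 to 0.61), with 2 cre mice under the wt mean and 8 above it.

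Ifi27, a small membrane protein of mitochondria and the nuclear envelope, had signals from 12.30 to 13.40 with a median of 13.04 in cre mice, against 12.00 to 13.35 with a median of 12.95 in wt mice. The groups overlapped almost completely. It differed by 0.22 (SE 0.19, unadjusted limma p = 0.257), with 0.29 in batch 1, 0.14 in batch 2 and 0.15 with Adgre1. It was 0.14 without wt replicate 5, and 0.05 with the adipocyte list as a covariate.

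**Figure D4:**
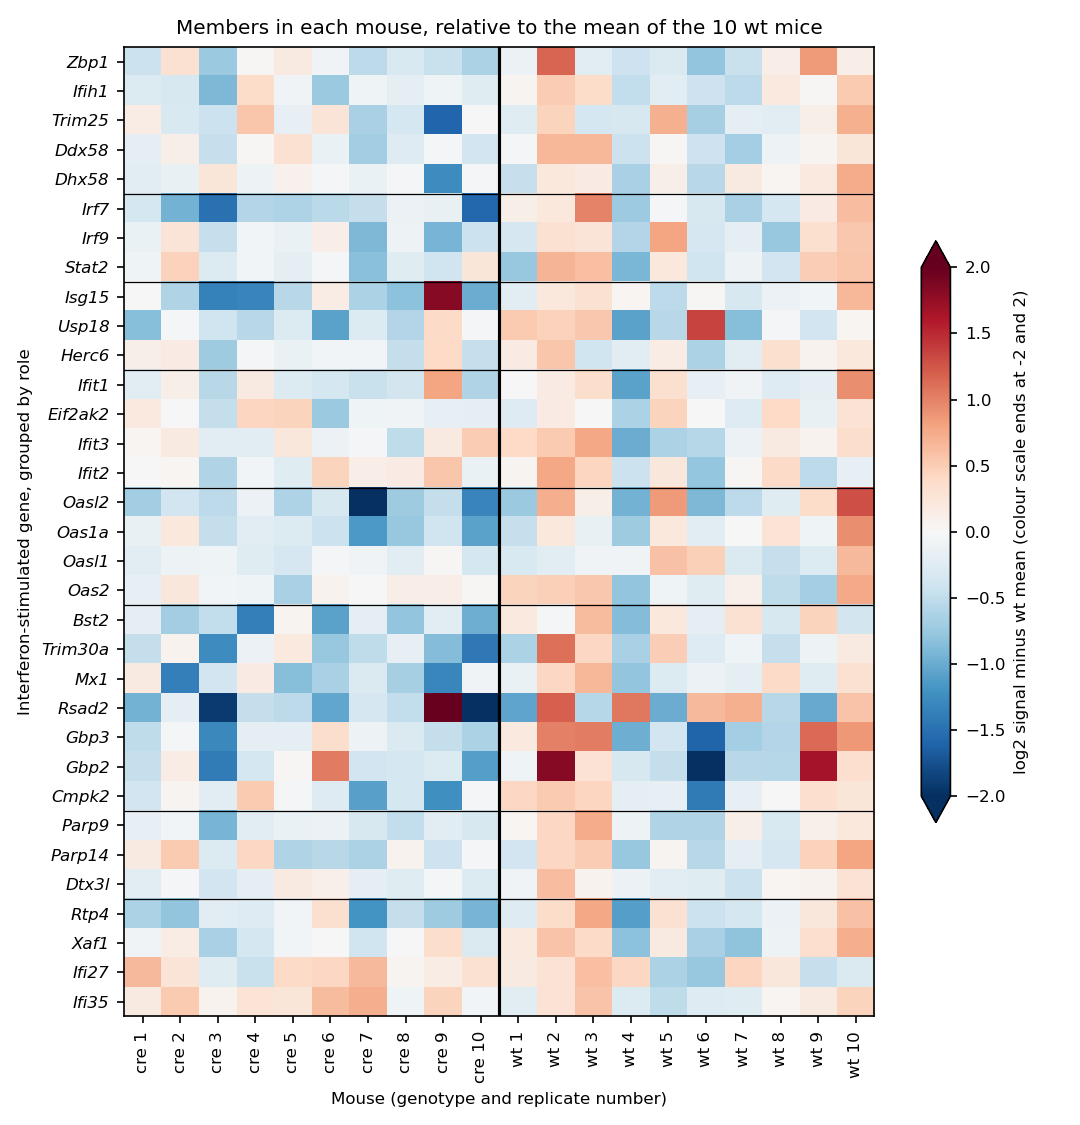
Log2 signal of the 33 interferon-stimulated genes in each cre and wt mouse, as the colour of its difference from the mean of the 10 wt mice, with blue lower and red higher. Columns are mice and rows are genes grouped by role; wt replicates 2, 3 and 10 are red in most rows, and cre replicate 3 is blue in most.

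The spread between mice was set side by side as well. The SD was larger among wt mice for 27 of 33 genes, against 49.0% of all probe sets, and the median SD was 0.40 in cre mice and 0.51 in wt mice; this was not tested. The mean of the 33 genes per mouse ran from 7.85 to 8.38 with a median of 8.27 in cre mice, against 7.93 to 8.97 with a median of 8.38 in wt mice. In batch 1 it averaged 8.17 ± 0.22 in cre and 8.46 ± 0.22 in wt mice, and in batch 2 8.22 ± 0.16 in cre and 8.43 ± 0.48 in wt mice (SD, n = 5 each).

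The highest means belonged to wt replicate 2 (8.97), wt replicate 10 (8.90), wt replicate 3 (8.79) and wt replicate 9 (8.55). Of the 33 genes, 32 lay above the median of the 20 mice in wt replicate 2 and 30 each in wt replicates 10 and 3. At the other end, wt replicate 4 held the lowest value of all mice for 7 genes and wt replicate 6 for 6 genes, more than any other mouse, while the lowest means of the 33 genes were those of cre replicate 3 (7.85), wt replicate 4 (7.93) and cre replicate 10 (7.97). The 4 mice with high means were not alike in other lists. Interferon-γ target genes that are not among the 33 averaged 10.3 and 10.4 in wt replicates 2 and 9, where T and NK cell genes averaged 7.19 and 7.10. In wt replicates 3 and 10 the same lists averaged 9.15 and 9.18 for interferon-γ targets and 5.75 and 5.30 for T and NK cell genes, within the ranges of the other mice. In wt replicate 4 the liver list averaged 14.5, and in wt replicate 6 the list of seminal vesicle genes averaged 16.9.

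**Figure D5:**
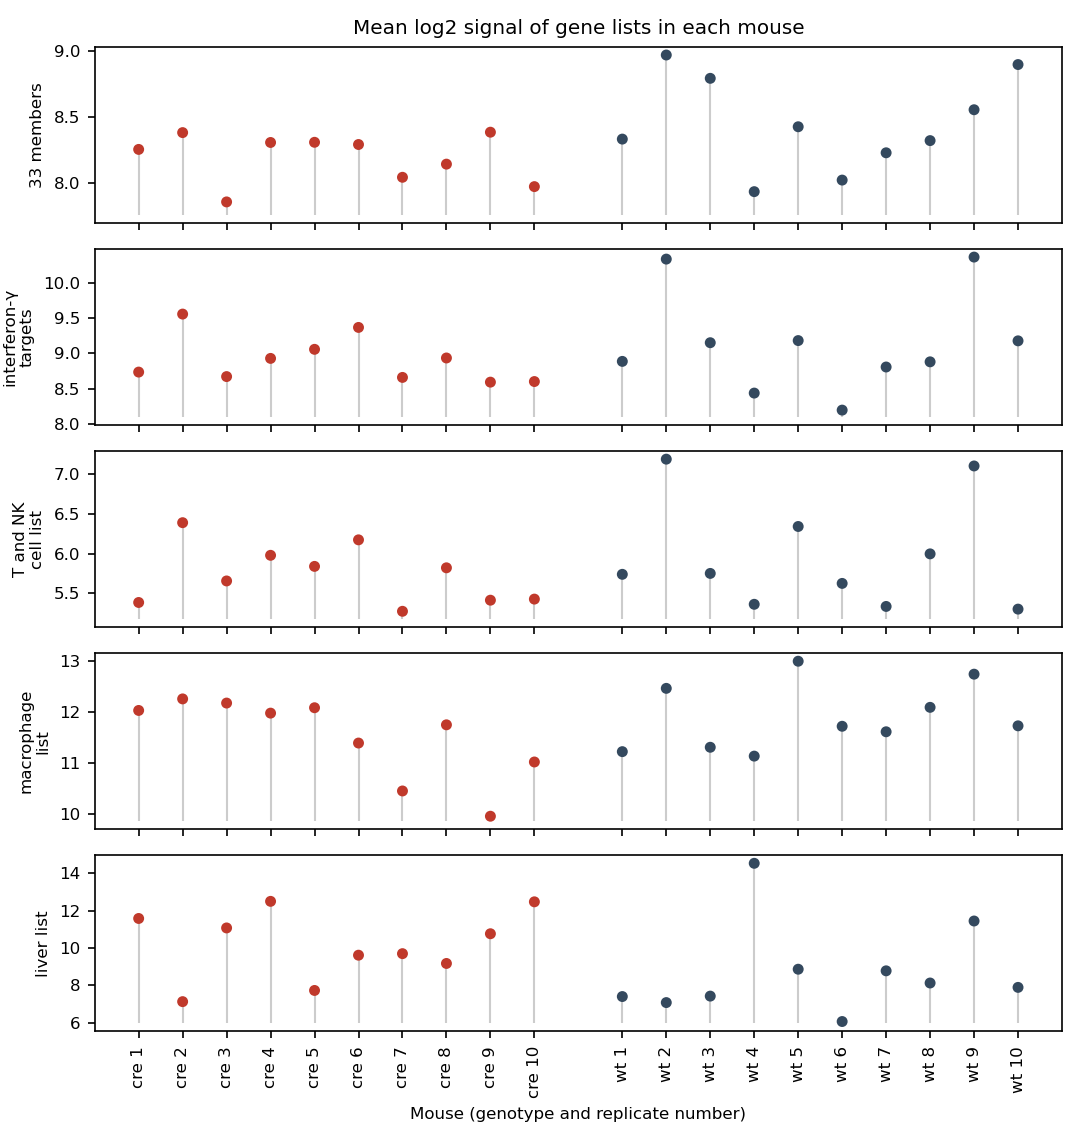
Mean log2 signal (vertical axes) of the 33 interferon-stimulated genes and of gene lists for interferon-γ targets, T and NK cells, macrophages and liver in each cre mouse (red, left) and wt mouse (dark, right). Wt replicates 2, 3, 9 and 10 have the highest means of the 33 genes, and of these wt replicates 2 and 9 also have high means of interferon-γ targets and of T and NK cell genes.

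Within genotype and batch the other 32 genes were each related to Irf7 from mouse to mouse by a positive slope (32 of 32, 100%, against 49% of all probe sets), from 0.06 for Dhx58 to 1.01 for Gbp3, with a median of 0.36 log2 units per log2 unit of Irf7. An unadjusted p under 0.05 was reached by 15 of 32 (46.9%, against 2.44% of probe sets). Among them were Xaf1 (slope 0.66, p = 0.000268), Gbp3 (1.01, p = 0.000557), Ifih1 (0.50, p = 0.00252), Ifit1 (0.57, p = 0.00379) and Ddx58 (0.47, p = 0.00502). After adjustment in limma 0 of 32 genes passed, as did 0% of all probe sets, and the smallest adjusted p was 0.541. The other probe sets with the smallest p of a positive slope were those of Slc4a4, Rhox13, Adar, Txndc16, Mb21d2, Cobl, Tmem154, Tgtp2, Zfp12 and Col14a1. Adar, an RNA-editing enzyme, and Tgtp2, a GTPase, are known to be induced by interferon; their slopes were 0.55 and 1.70.

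Slopes on Tnf itself were computed in the same way, over both genotypes together. In cre mice the median Tnf signal was 4.58, while the lower quartiles of the arrays lay between 4.59 and 4.92. Background thus makes up an unknown share of Tnf signals in cre mice, and slopes within each genotype alone are not given. Within genotype and batch 9 of 33 genes had a positive slope on Tnf at an unadjusted p under 0.05 (27.3%, against 7.61% of probe sets): Zbp1, Trim25, Irf7, Irf9, Oasl2, Trim30a, Gbp2, Gbp3 and Xaf1. The largest slopes were 0.88 for Gbp2 and 0.76 for Oasl2. After adjustment 0 of 33 genes passed in limma, as did 0% of all probe sets. Adgre1 had a slope of 0.97 on Tnf (unadjusted limma p = 0.00337, adjusted p = 0.202), and the slopes on Tnf were not adjusted for it.

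Upstream of the 33 genes, the interferon genes were split in direction. Of 18 interferon genes measured 8 were lower and 10 higher in cre mice. Over all probe sets 49.3% were lower in cre mice. At an unadjusted limma p under 0.05, 3.05% were lower and 3.24% higher. Ifna14 (-0.51) and Ifnz (-0.28) were lower and Ifna5 (0.50) higher at an unadjusted limma p under 0.05, and their adjusted p was 0.770 for Ifna5 and Ifna14 and 0.794 for Ifnz. The mean signal of the 18 genes was 4.79 ± 0.11 in cre mice and 4.78 ± 0.10 in wt mice (SD, n = 10 each), within the range of the arrays' lower quartiles. Of 13 genes of receptors and JAK-STAT signalling 9 were lower and 4 higher, 0 of them at an unadjusted p under 0.05. The receptor genes Ifnar1 and Ifnar2 differed by -0.04 (95% interval -0.44 to 0.36) and 0.03 (95% interval -0.21 to 0.27).

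Of 17 genes that lead from nucleic acid sensing to interferon production 15 were lower in cre mice, against 49.3% of all probe sets, with a median of -0.24. Over all probe sets 3.05% were lower at an unadjusted p under 0.05. Tlr7 (-0.97), a sensor of single-stranded RNA, Myd88 (-0.49), its adaptor, and Tlr3 (-0.32), a sensor of double-stranded RNA, were under an unadjusted p of 0.05 and had limma adjusted p-values of 0.788, 0.792 and 0.781. Tlr7 and Myd88 followed Adgre1 within genotype and batch, with slopes of 0.87 and 0.46 (adjusted p = 0.00459 and 0.00372). The slope of Tlr3 was 0.04. Over all probe sets 8.82% had a slope on Adgre1 past an adjusted limma p of 0.05, in either direction. Slopes are given only for the genes picked by their unadjusted p, and the part of macrophage content was not tested.

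Of another 33 interferon-induced genes, outside the list of members, 29 were lower and 4 higher in cre mice, where 49.3% of all probe sets were lower. Their median difference was -0.19. They were measured in the same mice, so they are no independent check of the members. At an unadjusted p under 0.05 5 of these genes were lower, against 3.05% of all probe sets. Ifitm3, which stops viruses from entering cells, had signals from 13.4 to 14.8 in cre mice, against 14.0 to 15.1 in wt mice, and differed by -0.59 (SE 0.20, limma adjusted p = 0.770). The other 4 were its relative Ifitm2 (-0.42), Oas1g (-0.53), the secreted glycoprotein gene Lgals3bp (-0.68) and the galectin gene Lgals9 (-0.52). Of 21 interferon-γ target genes 16 were lower in cre mice, with a median of -0.28, and 0 reached an unadjusted p under 0.05 in either direction. Their mean per mouse ranged from 8.59 to 9.56 in cre mice and from 8.20 to 10.4 in wt mice, so that the widest spread was again among wt mice. Of 9 genes that mark plasmacytoid dendritic cells, which make much interferon, 4 were lower and 5 higher. The list's mean signal was 6.33 ± 0.29 in cre mice and 6.32 ± 0.33 in wt mice (SD, n = 10 each).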

How the data were processed

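RNA of epididymal fat was labelled with the GeneChip WT PLUS kit, per the labels' protocols. The deposited values are the authors' log2 signals of probe sets; Transcriptome Analysis Console 4.0.2.15, RMA and mm10 were used, per the submitters' processing notes. RMA usually makes array distributions alike, so that a shift common to most genes cannot be seen. Any filter or batch adjustment is not given in the sources used here. Groups, batches and replicate numbers came from the sample titles.

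All 22206 probe sets were fitted in R 4.3.3 by limma 3.58.1, using lmFit on genotype and batch and eBayes with no trend. P-values were adjusted by Benjamini-Hochberg over all of them, with a threshold of 0.05 and 95% intervals. Adgre1, Irf7, Tnf or a list mean was added as a term where stated. The fit was tested on simulated data. Permutations used Python 3.11.15 with NumPy 2.4.6, and figures matplotlib 3.10.9. Same-numbered mice of the genotypes had correlations of deviations from -0.315 to 0.302, over 0.1 in 4 of 10 pairs. These values cannot show whether the numbers pair the mice, and the main fit did not treat them as pairs.

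The members, gene lists and tests were chosen with earlier results of these data known. All 33 members are named; given in full are those with an unadjusted p under 0.05 and 1 or more per role whatever their p. Of other genes, the 10 with the smallest p of a positive slope on Irf7 (no predicted or clone names) and the pathway genes under an unadjusted p of 0.05 are named. Alternatives were another batch treatment, covariates, normalization, weights, prior, fold, motif and leaving out mice. The covariates from the T and NK cell and liver lists were chosen after seeing the data. The number of arrays limits the precision, and each array is a separate mouse, per the labels.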

Additional observations from a re-analysis of the deposited data

Results flagged for a closer look

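Of 66 sets of 10 values (33 genes in each genotype), 6 held a highest or lowest mouse whose gap to its neighbour was large for the range of its group. The limit used has a nominal rate of about 5% of sets, for independent, normally distributed values. The genes varied together and each set pooled 2 batches, so 5% is not the chance rate here. A share over all probe sets is not given. In cre replicate 9 such a gap was found for 3 genes. Its Rsad2 signal was 13.18, with the next cre mouse at 8.67. Its Isg15 signal was 7.86, with the next at 6.19. Its Dhx58 signal was low at 5.61, with the next at 6.64. The same mouse had the lowest mean of the macrophage list (9.95) and the highest of the erythroid precursor list (10.4), and the part of these in its values was not tested. Oas2 was low in cre replicate 5 at 4.43, with the next mouse at 4.92. Parp9 was low in cre replicate 3 at 8.57, with the next at 9.0. Cmpk2 was low in wt replicate 6 at 6.18, with the next at 7.40; that mouse also had the highest mean of the seminal vesicle list.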

How the results depend on the processing

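The number of genes past adjustment was 0 of 33 under every alternative run. The count of 7 genes lower at an unadjusted p under 0.05 became 3 in batch 2 alone, 4 each with the macrophage list, with the liver list and without cre replicates 7 and 9, and 11 without the 5 mice that stood apart in lists of other tissues. In these fits, in the order named, 2.38%, 3.22%, 2.62%, 2.4% and 3% of all probe sets were lower at that p. Leaving out each mouse in turn gave 4 to 9, against 2.52% to 3.46% of all probe sets, with the median difference between -0.31 and -0.18. In the stated selection the count of 3 became 6 in batch 1 alone, 6 without the 5 mice, 1 with the liver list, 7 at a fold of 1.2 and 0 at a fold of 2, and 1 to 6 on leaving out each mouse. The share of all probe sets lower in that selection, 0.662%, is given for the main fit only. These changed counts therefore have no share to be read against. The longer motif was found in 8 promoters in place of 13. With a replicate block in place of the batch term 7 genes, the same 7, were under 0.05, and the limma adjusted p of Bst2 was 0.665. The sign turned for Isg15 (0.0210), Eif2ak2 (0.0280) and Rsad2 (0.70) in batch 1 alone, for Irf9 (0.13), Stat2 (0.16), Oas2 (0.14) and Gbp2 (0.0425) in batch 2 alone, for Eif2ak2 with the macrophage list (0.0163), and for Eif2ak2 (0.0112) and Oas2 (0.0918) with the liver list. On leaving out single mice Oas2 ranged from -0.13 to 0.0506 and Eif2ak2 from -0.14 to 0.0129. The cause of these changes was not tested. Of the single-gene values, the other 667 kept their sign and side of the adjusted threshold. Low signals, as in Oasl1, Oas2, the interferon genes and Tnf in cre mice, limit what a difference or a slope can show.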
